A study of Mus musculus with 8 samples.

Results

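The receptor chains through which naive T cells sense cytokines other than interleukin 7 were followed by name: Il2ra, Il2rb, Il4ra, Il21r, Il6ra, Il6st, Il27ra, Ifngr1, Ifngr2 and Ifnar1. All 10 genes were found among the 23155 genes of the table, and they were picked by name and role rather than by a threshold on values. The libraries hold ribosome footprints, the stretches of mRNA that a translating ribosome shields from nuclease, from naive CD4+ T cells, the helper lineage before its first contact with antigen. The 2 KO libraries came from Mettl3 knockout C57BL/6 mice and the 2 WT libraries from wild-type C57BL/6 mice. All cells had been exposed for 1 min to 0.1 mg/ml of cycloheximide, an inhibitor that arrests elongating ribosomes. How Mettl3 was deleted, in which cells, and at what age the mice were used is not given in the sources used here. Whether the duplicates came from separate animals is not given either, so a p-value weighs a difference only against the scatter of these libraries, possibly technical. The 4 input RNA libraries of the study were not analysed here, so a footprint difference cannot be divided into mRNA amount and ribosome density. In bulk samples like these, more cells of a type and more RNA per cell cannot be told apart.

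Cytokine receptors work as pairs or trios of chains, of which some bind the ligand and others mainly carry the signal. Chains that share a partner fall into families: Il2rb, Il4ra and Il21r pair with the common gamma chain Il2rg, and Il6ra and Il27ra pair with Il6st, the signalling chain gp130. The interferon gamma receptor joins Ifngr1 and Ifngr2, and the type I interferon receptor joins Ifnar1 and Ifnar2. Bound receptors activate JAK kinases, which phosphorylate STAT transcription factors. In naive helper T cells these receptors decide which cytokines can keep the cell alive or direct it to a helper lineage. Mettl3 is the catalytic part of the methyltransferase that places m6A on mRNA, mostly at an A within a short motif of which GGACT, written in DNA letters, is a common form.

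The letters GGACT were therefore looked up in the coding part of each chain's mRNA, the part that ribosomes read. The coding parts of 9 of the 10 chains held at least 1 match, and that of Il6st, which is 2751 bases long, held 0. The whole Il6st transcript, with its untranslated ends, held 10 matches. Of 8847 tested genes with a coding transcript, 74.9% held a match. The density was 1.24 matches per kb of coding sequence in Il2rb and in Il4ra, against a median of 1.02 per kb over those 8847 genes. It was highest in Il6ra, at 2.17 per kb. Since m6A is known to gather near stop codons, the last match within the coding part is shown for each chain that had one. Matches beyond the stop codon were not placed, and such a match could lie nearer to it. Each window stands on the mRNA strand, 5′ to 3′ and within a single coding exon. The motif is in capitals and the flanking bases are in lower case, where Ifngr2 holds a further match. The sequences come from the GENCODE M21 transcripts on GRCm38. No methylation was measured in these files, so a match is a stretch of letters and not a mapped site.
Il2ra (chr2:11680362-11680386, plus strand): aaaacggggtGGACTcagccccagc
Il2rb (chr15:78481701-78481725, minus strand): cctgcatgagGGACTtccctcccta
Il4ra (chr7:125576565-125576589, plus strand): atttactttcGGACTagacacggag
Il21r (chr7:125632756-125632780, plus strand): caaaggaaggGGACTggacagcaga
Il6ra (chr3:89890246-89890270, minus strand): cacctggtggGGACTgtgcccttgc
Il27ra (chr8:84036153-84036177, minus strand): agtatgtggtGGACTgggctcaaga
Ifngr1 (chr10:19609486-19609510, plus strand): gctccatatcGGACTtggaatctct
Ifngr2 (chr16:91562932-91562956, plus strand): aggactcctgGGACTccgtgtcaat
Ifnar1 (chr16:91505200-91505224, plus strand): agaccagccaGGACTcgggcaacta
The matches of Ifngr2, Ifngr1, Ifnar1, Il21r and Il2rb end 56, 185, 194, 218 and 232 bases before the stop codon. Those of Il2ra, Il4ra and Il27ra end 282, 472 and 824 bases before it. That of Il6ra, the last within its coding part, ends 1077 bases before it.

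Footprint levels are given as FPKM, read fragments per kilobase of transcript, corrected for library size. The size of a single read put the depth at 5.86e+06 and 2.81e+06 reads in KO libraries 1 and 2 and at 5.78e+06 and 3.41e+06 reads in WT libraries 1 and 2, so low values are less precise in library 2 of each genotype. Mettl3 itself had 2.44 and 3.32 FPKM in the KO libraries and 24.5 and 21.1 FPKM in the WT libraries (log2 fold change -2.62, SE 0.18, limma adjusted p = 0.00208). The test covered the 9271 genes that averaged 1 FPKM or more, with limma on log2(FPKM + 1) and Benjamini-Hochberg adjustment at a threshold of 0.05. Fold changes are on that log2 scale, so those of low genes come out too small. The test called 206 genes, 2.22% of those tested, of which 145 were higher in KO and 61 lower. With each library centred on its median the split was 204 higher and 50 lower, so the share of higher calls was 80.3% in place of 70.4%. Small RNA genes, left out of the test, took 55.7% and 49.4% of the summed FPKM in KO and 43.7% and 37.0% in WT, and rescaling the libraries without them left the same count of 2 receptor chains called. The T cell markers Cd3e, Cd3d, Cd3g, Cd4, Cd5, Cd28 and Lck were all detected, with summed levels of 399 to 409 FPKM in KO and 478 to 530 FPKM in WT. The CD8 T cell markers Cd8a and Cd8b1 summed to 1.28 to 1.47 FPKM in KO and 1.13 to 2.41 FPKM in WT.

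Of the 10 chains, 9 passed the filter, and 2 of these were called, Il2rb and Il4ra, both higher in KO. No chain was called lower. Both KO libraries lay above both WT libraries at 5 of the 9 and below them at 3, against 16.3% and 34.6% of all tested genes, and the groups did not overlap at 50.9% of all tested genes. The median log2 fold change of the 9 chains was 0.04, against -0.10 for all tested genes. The chains spread to both sides of that median, from -0.73 for Il6st to 1.69 for Il2rb.

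**Figure D1:**
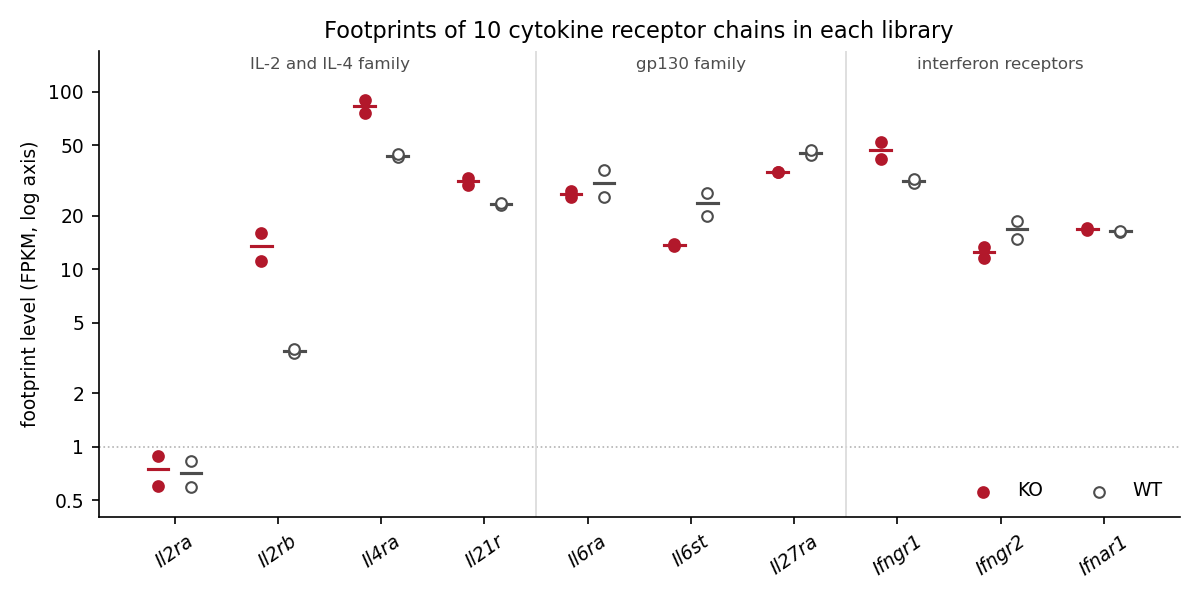
Footprint level of each receptor chain in FPKM on a log axis, with a point for each library (filled, KO; open, WT), a bar at the mean of each genotype, and a dotted line at the filter of 1 FPKM. Il2rb stood at 11.1 and 16.05 FPKM in KO against 3.39 and 3.56 FPKM in WT, and Il2ra lay under the filter in all 4 libraries.

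Il2rb encodes the beta chain of the receptors for interleukins 2 and 15, which signals through STAT5 and is known to be low on naive cells and high on memory T cells and NK cells. Its gene lies at chr15:78479256-78495271 on the minus strand of GRCm38. It had 11.1 and 16.05 FPKM in the KO libraries and 3.39 and 3.56 FPKM in the WT libraries. The groups did not overlap, and the KO libraries differed from each other more than the WT libraries did. Il2rb rose to 13.6 ± 3.46 FPKM in KO, against 3.48 ± 0.115 FPKM in WT (SD, n = 2 each; log2 fold change 1.69, SE 0.20, limma adjusted p = 0.0125). In the order of tested genes by mean level, 72.0% lay below it in KO and 27.6% in WT. The values rest on an estimated 274 and 189 reads in KO and 82.2 and 50.9 reads in WT, taking the length of its GENCODE transcript. Its call held without KO library 1 (limma adjusted p = 0.0472) and ended without KO library 2 (0.140), WT library 1 (0.0723) or WT library 2 (0.0858), and over its 13 alternatives the value ran from 0.00583 to 0.211. Its direction was the same in all 13, and with a pseudocount of 5 its log2 fold change was 1.12.

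Markers of activated, memory and effector T cells moved with Il2rb. Of 8 such markers (Cd44, Cxcr3, Gzmb, Ifng, Tbx21, Ccl5, Cd69 and Icos), 6 rose and 2 did not pass the test. Of all tested genes, 1.56% were called higher. The list summed to 236 and 277 FPKM in KO and 194 and 202 FPKM in WT. Most of each sum was Cd69, which was not called, at 182 and 190 FPKM in KO and 176 and 182 FPKM in WT. Cd44, a surface marker of memory cells, was among those that did not pass, at 2.47 and 4.61 FPKM in KO and 3.10 and 3.04 FPKM in WT. Of 6 NK cell markers, 0 of the 3 tested were called. Both KO libraries lay above both WT libraries at 16.3% of all tested genes and at each of the 3 (Eomes, Prf1 and Nkg7). T cells are known to express these 3 as well. Klrb1c and Klra8, receptors of NK cells, were under the filter and lay to the other side, at 0.252 and 0.459 FPKM in KO and 1.06 and 0.862 FPKM in WT for Klrb1c and at 0.421 and 0.651 FPKM in KO and 0.703 and 1.74 FPKM in WT for Klra8. The NK list summed to 19.6 and 24.7 FPKM in KO and 9.60 and 16.6 FPKM in WT, and Ncr1, a receptor that defines NK cells, was listed at 0 in all 4 libraries. The part of such cells in the Il2rb values was not tested.

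Il4ra encodes the chain that binds interleukins 4 and 13 and activates STAT6, the entry to the type 2 helper lineage. Its gene lies at chr7:125552120-125579474 on the plus strand. It had 76.1 and 90.2 FPKM in KO and 42.6 and 44.6 FPKM in WT, with no overlap. Il4ra rose to 83.1 ± 9.99 FPKM in KO, against 43.6 ± 1.43 FPKM in WT (SD, n = 2 each; log2 fold change 0.91, SE 0.13, limma adjusted p = 0.0188). It is the best covered of the 10, with an estimated 799 to 2341 reads a library. With KO library 1, the lower of both, as the only KO library, the log2 fold change was 0.79. The call ended whichever of the 4 libraries was left out (limma adjusted p of 0.0846 to 0.192), with small RNA genes kept (0.0591) and with no variance trend (0.0893), and its full range was 0.00925 to 0.211. Exons of Il4ra overlap those of Gm44876 on the opposite strand, a gene that is not in the table. B cells also carry Il4ra. The 6 B cell markers summed to 7.84 and 19.0 FPKM in KO and 26.3 and 17.6 FPKM in WT, and Pax5, which defines B cells, was listed at 0 in all 4 libraries.

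Il21r, the receptor chain for interleukin 21, a cytokine of helper cells that assist B cells, stands next to Il4ra on chromosome 7. Il4ra ends at 125579474 and Il21r starts at 125603429, 23.95 kb further, with 0 protein-coding genes between them (GENCODE M21, GRCm38). Il21r had 29.9 and 32.5 FPKM in KO and 22.8 and 23.6 FPKM in WT. Both KO libraries lay above both WT libraries, but the difference did not pass the threshold (log2 fold change 0.41, with a 95% interval of 0.10 to 0.72, limma adjusted p = 0.171). The estimate of Il4ra lay above that interval, but its own 95% interval, 0.60 to 1.22, overlapped it. Whether the 2 genes differ in their change was not tested.

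Il2ra, the alpha chain CD25 that gives the interleukin 2 receptor its high affinity, is known as absent from resting naive cells and high on regulatory and activated T cells. It was the lowest of the 10, at 0.5995 and 0.891 FPKM in KO and 0.597 and 0.829 FPKM in WT, and the groups overlapped. With a mean of 0.729 FPKM it was under the filter and not tested. In a fit with no filter its log2 fold change was 0.03 (with a 95% interval of -0.42 to 0.47, limma adjusted p = 0.967). An estimated 11.0 to 15.5 reads a library lay behind these values, so a modest difference was not detectable at this depth. Foxp3, the defining factor of regulatory T cells, had 1.80 and 1.60 FPKM in KO and 2.15 and 2.32 FPKM in WT. The 7 regulatory T cell markers other than Il2ra summed to 83.6 and 92.9 FPKM in KO and 61.5 and 61.0 FPKM in WT, with 0 of 6 tested called. Both KO libraries lay above both WT libraries at 4 of these 6 and below them at 1, Foxp3. Of all tested genes, 16.3% lay above and 34.6% below. The median log2 fold change of the 6 was 0.60. The part of such cells in the Il2ra and Il2rb values was not tested.

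Il2rg, the common gamma chain that Il2rb, Il4ra and Il21r share, had 54.9 and 66.5 FPKM in KO and 56.6 and 63.2 FPKM in WT (log2 fold change 0.01, limma adjusted p = 0.971). The ratio of each chain to Il2rg within a library, which no scaling of the library can alter, therefore differed between genotypes much as the chain itself did. Il2rb stood at 0.203 and 0.241 times Il2rg in KO and at 0.0599 and 0.0563 times in WT. Il4ra stood at 1.39 and 1.36 times Il2rg in KO and at 0.752 and 0.705 times in WT. Its FPKM thus exceeded that of Il2rg in both KO libraries and in neither WT library. FPKM counts the whole transcript with its untranslated ends, and Il2rg was not put on coding length. Which chain holds more footprints per coding length was therefore not determined. Il21r stood at 0.544 and 0.489 times Il2rg in KO and at 0.404 and 0.374 times in WT. These ratios share Il2rg and are not independent of each other.

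**Figure D2:**
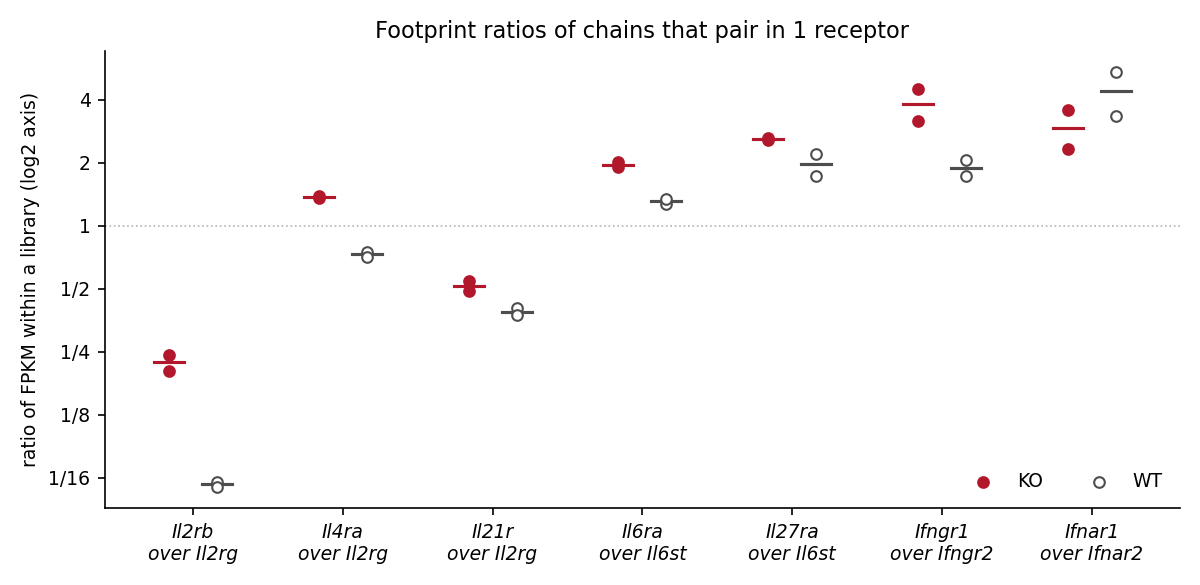
Ratio of the FPKM of chains that pair in 1 receptor, on a log2 axis, with a point for each library (filled, KO; open, WT) and a bar at the mean of each genotype. At 6 of the 7 ratios both KO libraries exceed both WT libraries, and at Ifnar1 over Ifnar2 the genotypes overlap. Ratios that share Il2rg or Il6st are not independent of each other. Among single tested genes the genotypes did not overlap at 50.9%, and no such share was computed for ratios.

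Il6st encodes gp130, the signalling chain that the receptors for interleukins 6 and 27 share. It had 13.4 and 13.8 FPKM in KO and 19.99 and 26.9 FPKM in WT. The groups did not overlap, and the WT libraries differed from each other more than the KO libraries did. Its mean was 13.6 ± 0.249 FPKM in KO and 23.5 ± 4.91 FPKM in WT (SD, n = 2 each; log2 fold change -0.73, SE 0.17, 95% interval -1.14 to -0.32), which did not pass the threshold (limma adjusted p = 0.0922). Over its 13 alternatives the adjusted p ran from 0.0537 to 0.369, and the fold change kept its sign in all 13. An estimated 336 to 1002 reads a library lay behind its values. The T cell markers lay to the same side, with both KO libraries below both WT libraries at 5 of 7, against 34.6% of all tested genes. Their median log2 fold change was -0.44, against -0.10 for all tested genes, and 0 were called. Their part in the values of Il6st and Il27ra was not tested.

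Il6ra, the chain that binds interleukin 6, had 25.6 and 27.7 FPKM in KO and 25.4 and 36.1 FPKM in WT. The KO values lay inside the range of the WT values (log2 fold change -0.18, with a 95% interval of -0.61 to 0.25, limma adjusted p = 0.645). Its direction rested on WT library 2: without it the log2 fold change was 0.067. Exons of Il6ra overlap those of Gm42809 on the opposite strand, and without knowledge of strand use their reads cannot be told apart.

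Il27ra, the ligand-binding chain of the interleukin 27 receptor, had 35.2 and 35.4 FPKM in KO and 44.1 and 46.7 FPKM in WT. The libraries of each genotype were close to each other and the groups did not overlap, yet the difference did not pass the threshold (log2 fold change -0.35, with a 95% interval of -0.64 to -0.06, limma adjusted p = 0.194). It also overlaps a gene on the opposite strand, Palm3, which stood at 0.748 and 0.565 FPKM in KO and 0.924 and 1.51 FPKM in WT. Relative to Il6st, both ligand-binding chains stood higher in KO. Il6ra stood at 1.91 and 2.01 times Il6st in KO and at 1.27 and 1.34 times in WT. Il27ra stood at 2.62 and 2.57 times Il6st in KO and at 2.20 and 1.74 times in WT. Both ratios share Il6st and are not independent of each other.

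Ifngr1, the ligand-binding chain of the interferon gamma receptor, had 41.9 and 51.9 FPKM in KO and 30.6 and 32.3 FPKM in WT. The groups did not overlap, and the difference did not pass the threshold (log2 fold change 0.55, with a 95% interval of 0.21 to 0.90, limma adjusted p = 0.112, lowest 0.0501 over its alternatives, with libraries centred on their medians). Ifngr2, the signalling chain of the same receptor and the one known to limit interferon gamma responses in type 1 helper cells, had 13.3 and 11.6 FPKM in KO and 14.8 and 18.7 FPKM in WT. It lay on the opposite side and did not pass the threshold either (log2 fold change -0.40, with a 95% interval of -0.80 to -0.002, limma adjusted p = 0.270), and without WT library 2 the log2 fold change was -0.24. Within a library, Ifngr1 stood at 3.15 and 4.49 times Ifngr2 in KO and at 2.06 and 1.72 times in WT, a log2 difference of 1.00.

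Ifnar1, a chain of the type I interferon receptor, was the steadiest of the 9 tested chains. It had 16.7 and 17.0 FPKM in KO and 16.3 and 16.4 FPKM in WT (log2 fold change 0.04, with a 95% interval of -0.28 to 0.36, limma adjusted p = 0.902). The interval leaves room for a change of either sign within those bounds. Its partner Ifnar2 had 7.22 and 4.77 FPKM in KO and 4.85 and 3.01 FPKM in WT, and the ratio of Ifnar1 to Ifnar2 overlapped between genotypes, at 2.31 and 3.56 in KO and 3.35 and 5.44 in WT. With 2 libraries against 2, an exact permutation test of a ratio cannot give a two-sided p below 0.333, and each of the 6 ratios that did not overlap had that p.

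Both type I interferon receptor genes stand in a row with Il10rb and Ifngr2 on chromosome 16. The order is Ifnar2, Il10rb, Ifnar1 and Ifngr2, from 91372783 to 91565623, with 0 protein-coding genes between neighbours. Il10rb, the second chain of the interleukin 10 receptor, had 14.6 and 17.5 FPKM in KO and 17.8 and 17.6 FPKM in WT. The 4 genes of the row had log2 fold changes of 0.51, -0.14, 0.04 and -0.40, and 0 of them was called.

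**Figure D3:**
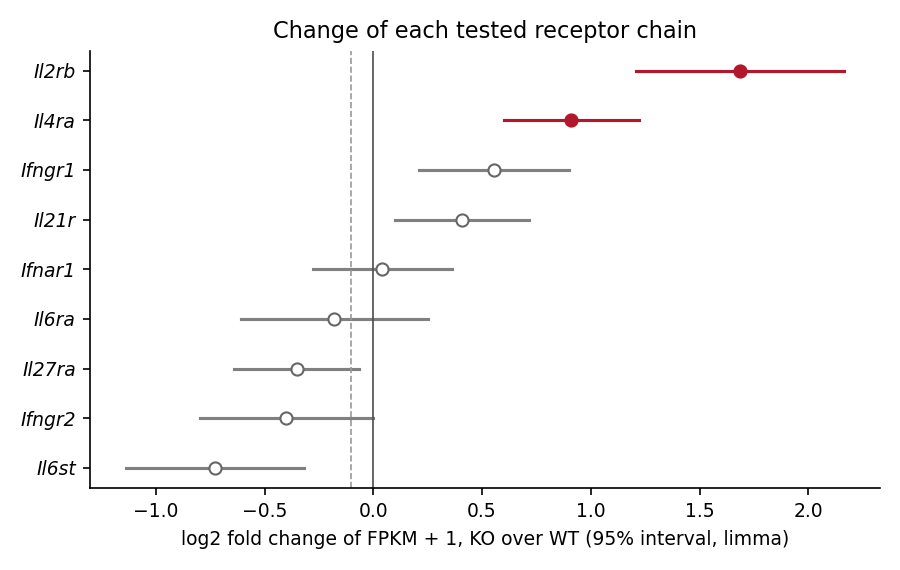
Log2 fold change of FPKM + 1, KO over WT, of the 9 tested chains with the 95% interval from limma (filled, called; open, not called), a solid line at 0 and a dashed line at the median of all tested genes, -0.10. The intervals of Il2rb and Il4ra start at 1.21 and 0.60, and that of Ifnar1 spans 0.

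The order of the chains by footprints per length differed between genotypes. In KO, Il4ra was first, followed by Ifngr1 (46.9 FPKM), Il27ra (35.3 FPKM), Il21r (31.2 FPKM), Il6ra (26.7 FPKM), Ifnar1 (16.8 FPKM), Il6st (13.6 FPKM), Il2rb (13.6 FPKM), Ifngr2 (12.4 FPKM) and Il2ra (0.745 FPKM). In KO the values of Il6st overlapped with those of Il2rb, and those of Il2rb with those of Ifngr2, and all other neighbours stood apart. In WT, Il27ra (45.4 FPKM) was first with Il4ra (43.6 FPKM) overlapping it. Ifngr1 (31.5 FPKM), Il6ra (30.8 FPKM) and Il6st (23.5 FPKM) each overlapped with the next, the last of them with Il21r (23.2 FPKM). Il21r stood apart from Ifngr2 (16.8 FPKM), which overlapped with Ifnar1 (16.3 FPKM), and Il2rb and Il2ra came last, each apart. Footprints fall on the coding part, which is 18.2% of the transcript of Il2ra and 70.2% of that of Il27ra, so FPKM over the whole transcript lowers genes with long untranslated ends. Per kilobase of coding length, with transcripts chosen from GENCODE, Il4ra was first in both genotypes and Il2ra last in both. Il6st was then in place 7 in KO and in place 3 in WT, and Ifngr1 in place 2 in KO and in place 6 in WT.

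Genes that work with these receptors were then counted from lists chosen by their roles. Among 28 other class I and class II cytokine receptor chains, 11 were tested and 0 were called (limma; lowest unadjusted p of 0.00257), and the median log2 fold change was 0.01. Il7r, the interleukin 7 receptor chain and the most abundant of them, had 146 and 192 FPKM in KO and 109 and 95.9 FPKM in WT (limma adjusted p = 0.0750). Stat2, which carries signals of the type I interferon receptor, rose to 13.6 ± 0.820 FPKM in KO, against 4.66 ± 0.983 FPKM in WT (SD, n = 2 each; log2 fold change 1.38, limma adjusted p = 0.0151). Stat6, the factor downstream of Il4ra, had 25.7 and 26.1 FPKM in KO and 28.8 and 30.4 FPKM in WT. Stat3, the factor downstream of gp130, had 17.3 and 18.3 FPKM in KO and 17.5 and 19.3 FPKM in WT.

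Of the 11 signalling inhibitors, 10 were tested, 2 rose (Socs1 and Socs3) and 8 did not pass. Ligands were nearly absent: of the 10 listed, 9 were under the filter, and Ifng, the ligand of Ifngr1, rose to 15.1 FPKM in KO, against 2.66 FPKM in WT (limma adjusted p = 0.0151). Il21, the next by mean, stood at 0.815 and 0.220 FPKM in KO and 0.284 and 0.438 FPKM in WT. Among targets known for each receptor group, 8 of 11 tested targets of interferon gamma rose, with a median log2 fold change of 1.22, among them Igtp, Gbp2, Irgm1 and Gbp7, the 4 of lowest p. Of 12 tested targets of type I interferon, 5 rose (median 0.92), among them Isg15, at 64.4 FPKM in KO and 17.9 FPKM in WT. Of 7 tested targets of interleukin 2 and STAT5, 3 rose, Pim1, Bcl2 and Lta (median 0.89). Of 4 tested targets of interleukin 6 and STAT3, Socs3 rose and 3 did not pass, among them Junb, at 285 and 285 FPKM in KO and 395 and 408 FPKM in WT. No listed gene was called lower in KO. Of the 206 genes called, 0 were still called without KO library 2 and 24 to 40 without 1 of the other libraries, and limma called 0 genes with no filter on low genes (2061 had an unadjusted p under 0.05), so each call of a pathway gene given here ended in at least these 2 fits. These counts stand against 1.56% of all tested genes called higher and 0.658% called lower, and how far any list follows from the receptor chains was not tested.

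**Figure D4:**
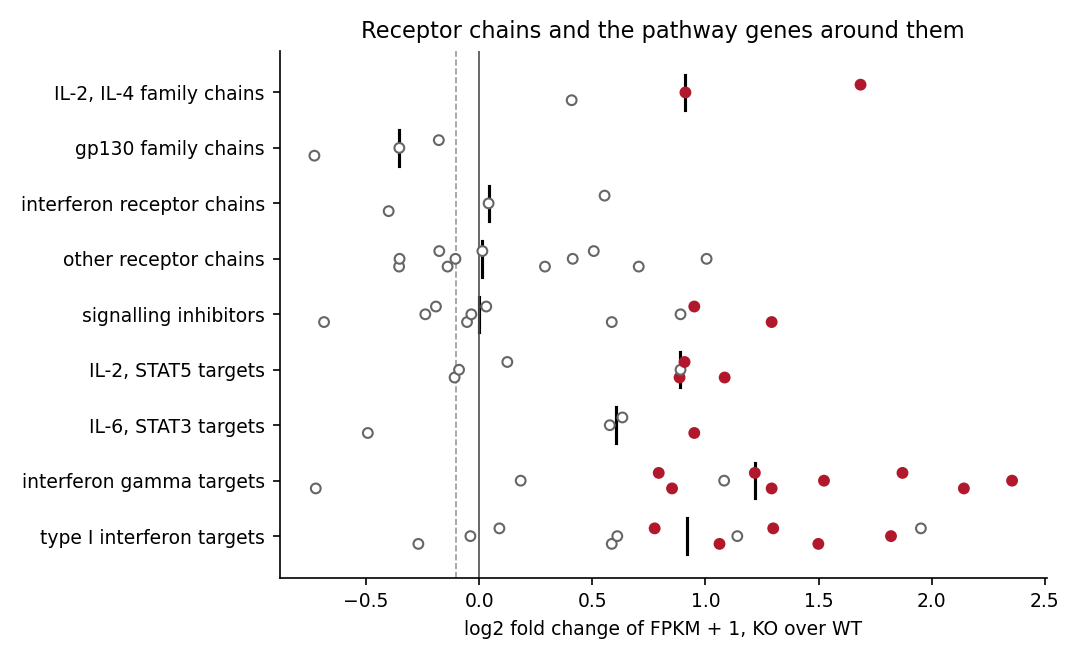
Log2 fold change of FPKM + 1, KO over WT, of each tested gene in the receptor families and in the lists around them (filled, called; open, not called), with a black bar at the median of each list and a dashed line at the median of all tested genes. The interferon gamma targets have a median of 1.22, and the 11 other receptor chains have a median of 0.01 with 0 called.

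Promoters were compared for the 8 chains with an entry in the RefSeq table (GRCm38.p6), from 250 bases before to 50 bases after the start. Il2rb and Il27ra had no entry, so the counts do not cover them. The STAT motif TTCNNNGAA, which reads the same on both strands, was found in 1 of the 8, that of Ifnar1, against 8.30% of all 32851 promoters. The interferon-stimulated response element, as GAAA, any 2 bases and GAAA, searched on both strands, was found in 0 of the 8, against 3.44% of all promoters. A match is a description of letters, and no match says only that these letters are not in this window.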

How the data were processed

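Ribosome footprints of naive CD4+ T cells were profiled in 2 KO and 2 WT libraries, grouped by title. The deposited table holds FPKM per gene and library, per the file headers, with replicates not pooled. TopHat, Cuffdiff and mm10 (GRCm38) are named in the submitters' processing notes, without versions. The annotation, strand use, treatment of shared reads and further scaling were not given in the sources used here.

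A repeated header line and 1217 small RNA genes, recognised by symbol, were dropped. The other genes averaging 1 FPKM or more were fitted as log2(FPKM + 1) with limma 3.58.1 in R 4.3.3 (variance trend, two-sided, 2 residual and 5.20 prior degrees of freedom, Benjamini-Hochberg over all tested genes). The fit was also run on simulated data without differences in depth between libraries, and the outcome is not given here. Depth was estimated as the reciprocal of the most frequent low value of FPKM times length, taken as 1 read, in 4045 genes with a single transcript. Lengths, places and coding parts come from GENCODE M21, using the transcript with the longest coding part. Ratios were compared with an exact permutation test (scipy 1.17.1).

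The chains, lists, tests and alternatives were chosen with earlier results of these data known. The rule named all 10 chains, Mettl3, and of each pathway list the called genes (up to 4 by p) or, with fewer than 2, its 2 highest by mean. A gene that this rule names is not reported here, nor are the counts of its list. Cd44, Cd69, Klrb1c, Klra8, Foxp3, Stat3, Stat6, Ifnar2, Il10rb and Palm3 fall outside it and were named as markers, partners or neighbours after their values were seen. Alternatives changed the pseudocount, filter, scaling, small RNA genes, variance trend, replicate block and each library.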

Additional observations from a re-analysis of the deposited data

How the results depend on the processing

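Against 206 genes called in the reported fit, limma called 0 with no filter on low genes (2061 of 15456 had an unadjusted p under 0.05), 83 with small RNA genes kept and 68 with no variance trend. Of the receptor chains, 2 were called in the reported fit, 0 with no filter, and 1 (Il2rb) with small RNA genes kept or with no variance trend. Leaving out 1 library gave 1 to 57 called genes and 0 to 1 called chains; the lone library of a genotype is then assumed to vary like the pair of the other. The fold changes of the 9 tested chains kept their sign in all 13 alternatives, except that Il6ra ranged from -0.42 to 0.067 when 1 library was left out, with 0.067 without WT library 2. No chain was called under an alternative that was not called in the reported fit. With the replicate number as a block, 170 genes and 2 chains were called, and no call of a chain changed. Libraries of equal number did not deviate together (Pearson r = -0.09 across genes, which are not independent replicates), so the number was not taken as a pairing, although libraries of equal number were also alike in depth. The count of 6 partner ratios without overlap was also 6 with a pseudocount of 1 added to both chains. Leaving out a library cannot make separate groups overlap, so those alternatives could not lower the count. Depth limits Il2ra most, followed by Il2rb in WT.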
